A study of Mus musculus with 64 samples.

Results

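Utf1, Zfp57, Bnc2, Myrf, Kifc3, Ppp1r9a, Soga3, Enox1 and Dip2c are 9 mouse genes whose mRNA was lower after auxin treatment in nearly every cell line of a study of RNA polymerase II subunits. They were selected on that pattern by symbol from a table of 55335 genes, so their values at 12 h are given here as a description with no p-value, and the tests use 12 libraries taken at 0 h and 1 h of auxin, outside that pattern. The cells are V6.5, a mouse embryonic stem cell line, in 13 versions: 12 degron lines, each named for the subunit it was built to lose (RPB1 to RPB12), and the wild-type line (WT). All cells grew with CHIR99021, an inhibitor of the kinase GSK3, at 3 µM and PD0325901, an inhibitor of the kinase MEK, at 0.5 µM. All received doxycycline for 12 h (2 µg/ml in the sample labels) to switch on OsTir1, the plant protein that marks degron-tagged proteins for destruction once the auxin IAA is present. Each of the 13 lines was sampled with 500 µM IAA for 12 h and without IAA, and RPB1, RPB3 and RPB6 were also sampled at 1 h and 0 h of IAA, with 2 libraries in each of the 32 groups. The labels do not say whether a line is 1 clone, whether WT carries OsTir1, or whether libraries of 1 group are separate cultures, so p-values measure the spread between these libraries, which may be technical.

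RNA polymerase II makes the mRNA of the protein-coding genes in the nucleus. RPB1 and RPB2 form its catalytic core, RPB4 and RPB7 form a stalk on its surface, and several small subunits are shared with the other nuclear RNA polymerases. The level of an mRNA is set by its synthesis and its decay, and embryonic stem cells keep up their state through transcription factors and chromatin regulators whose genes must be transcribed continually. The 9 genes have unlike roles. Utf1 encodes a chromatin-associated factor of undifferentiated stem cells. Zfp57 encodes a KRAB zinc-finger protein that keeps DNA methylation at imprinted loci. Bnc2 encodes a zinc-finger protein of the basonuclin family, and Myrf a membrane-bound transcription factor known from myelin-forming cells. Kifc3 encodes a minus-end-directed kinesin motor, Ppp1r9a encodes neurabin, an actin-binding partner of protein phosphatase 1, and Soga3 belongs to a family of coiled-coil proteins. Enox1 encodes a surface oxidase with disulfide-thiol exchange activity, and Dip2c a protein with domains that resemble acyl-CoA synthetases.

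Depth and sample checks were as follows. The 52 libraries of the 12 h experiment held 3399838 to 7164928 counts each, and the 12 libraries at 0 h and 1 h held 8598431 to 13281252. Levels are given as CPM, a gene's counts relative to its library's total on a common scale, after adjusting library sizes by the trimmed mean of M-values (TMM), separately in each experiment. A rise or fall is therefore relative to the other genes of the libraries compared. The subunits were removed as proteins, so the mRNA of a subunit does not check its loss. The summed level of 11 stem cell markers was 3300 to 10105 CPM in IAA libraries and 5044 to 7373 CPM in untreated libraries. The sum of 13 fibroblast markers, from feeder cells that such cultures can hold, was 5.66 to 31.9 CPM in IAA libraries and 6.74 to 25.3 CPM in untreated libraries, with Postn and Dcn at 0 throughout, and primitive endoderm markers summed to 54.6 to 197 CPM in IAA libraries and 74.2 to 202 CPM in untreated libraries. The part of these marker levels in the results was not tested. The 2 untreated RPB7 libraries stood furthest apart of all pairs, with a mean chi-square per gene of 14.7 against 1.11 for the closest pair. In bulk RNA, fewer cells of a kind and less RNA per cell cannot be told apart.

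The genes lie on 9 different chromosomes and range widely in size in mm10 (GENCODE M21). Utf1, on chromosome 7 from 139943789 to 139945112, spans 1.32 kb in 2 exons. Zfp57, on chromosome 17 from 37001163 to 37010635, spans 9.47 kb. At the other end Enox1, on chromosome 14 from 77156763 to 77721760, spans 565 kb, Bnc2 on chromosome 4 (84275095 to 84675275) spans 400.2 kb, Dip2c on chromosome 13 (9276528 to 9668928) spans 392 kb and Ppp1r9a on chromosome 6 (4902917 to 5165661) spans 263 kb. Kifc3 on chromosome 8 (95099828 to 95202812) spans 103 kb, Soga3 on chromosome 10 (29143839 to 29199630) spans 55.8 kb and Myrf on chromosome 19 (10208272 to 10240748) spans 32.5 kb. No source used here says whether the counting used strand, so reads of genes that overlap on opposite strands cannot be told apart, and the values of Kifc3 are uncertain for this reason. Soga3 shares 8.53% of its exonic bases with Gm9996, which held 36 counts in all 64 libraries.

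Promoter windows of 300 bases (250 before to 50 after a start site, RefSeq, GRCm38.p6) were on file for 7 of the 9 genes, 10 windows in all, with 3 for Zfp57 and 2 for Ppp1r9a. Those of Utf1 and of Zfp57 (the window at its annotated gene start), which were lower in every line, and of Enox1, the one gene that went the other way in a line, are shown, with motifs in capitals. The GC box is GGGCGG, searched on either strand, and found in Enox1 as its reverse complement. The other motif marked, on either strand as well, is the TATA box, spelled TATAAA.
Utf1, chr7:139943606-139943905, plus strand: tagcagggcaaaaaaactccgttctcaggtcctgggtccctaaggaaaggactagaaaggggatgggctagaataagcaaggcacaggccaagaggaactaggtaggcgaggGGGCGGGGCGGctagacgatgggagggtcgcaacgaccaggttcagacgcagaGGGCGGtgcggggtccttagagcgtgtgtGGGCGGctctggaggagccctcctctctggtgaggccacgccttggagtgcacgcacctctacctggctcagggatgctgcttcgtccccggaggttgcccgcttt
Zfp57, chr17:37000913-37001212, plus strand: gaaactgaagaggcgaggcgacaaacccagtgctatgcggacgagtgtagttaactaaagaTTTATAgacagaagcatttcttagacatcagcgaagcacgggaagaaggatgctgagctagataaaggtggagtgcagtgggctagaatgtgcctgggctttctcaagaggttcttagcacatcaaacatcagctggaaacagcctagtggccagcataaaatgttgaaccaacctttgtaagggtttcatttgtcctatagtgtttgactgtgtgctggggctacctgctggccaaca
Enox1, chr14:77156513-77156812, plus strand: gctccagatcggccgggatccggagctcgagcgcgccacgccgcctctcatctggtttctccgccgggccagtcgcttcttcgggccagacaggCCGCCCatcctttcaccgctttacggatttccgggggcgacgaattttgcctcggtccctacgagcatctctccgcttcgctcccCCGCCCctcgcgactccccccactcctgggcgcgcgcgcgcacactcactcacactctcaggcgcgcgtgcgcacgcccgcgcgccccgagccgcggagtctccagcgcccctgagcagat
The Utf1 window holds 4 GC boxes, the first pair overlapping in part, and the Enox1 window holds 2, with a GC content of 62.0% for Utf1 and 70.3% for Enox1. The Zfp57 window shown holds no GC box and has 1 TATA box, at a GC content of 47.0%. Its other windows hold neither, at 43.0% and 52.7% GC. A GC box was present in 5 of the 10 windows (of Utf1, Enox1, Ppp1r9a and Dip2c), against 35.7% of 32851 promoter windows on file, and a TATA box in 1 of 10, against 13.6% of windows. No motif searched was common to all 7 genes. The CCAAT box (CCAAT, in 37.4% of windows), the E-box (CACGTG, 7.15%) and the AP-1 site (TGACTCA, 5.20%) were each found in 1 of the 10 windows, and the CRE (TGACGTCA, 1.79%) in 0.

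At 12 h, IAA libraries were lower than untreated libraries almost throughout. In 111 of 117 pairs of gene and line both IAA libraries lay below both untreated libraries, in 5 the libraries overlapped, and in 1 (Enox1 in RPB6) both IAA libraries lay above. How often other genes separate in this way, with 2 libraries against 2, was not computed, so nothing is read from these counts. A fit across 17928 genes (edgeR, quasi-likelihood, Benjamini-Hochberg adjustment, threshold 0.05) called 106 of the 117 pairs lower, 1 higher and 10 neither. This pattern is what the genes were selected on. All 9 genes were called lower in RPB1, RPB2, RPB3, RPB5, RPB7, RPB8, RPB9, RPB10, RPB11 and RPB12. Over all genes tested, the share called lower was 30.5% in RPB1, 34% in RPB2, 23.3% in RPB3, 28.1% in RPB5, 21.1% in RPB7, 30.2% in RPB8, 18% in RPB9, 21.2% in RPB10, 13.1% in RPB11 and 2.65% in RPB12. In RPB6 7 genes were called lower and Enox1 higher, against 33.4% of all genes called lower. In RPB4 7 genes were called lower, against 0.948% of all genes, and in WT 2 (Utf1 and Zfp57), against 0.842%. Nothing is read from these shares, since the same contrasts chose the genes.

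**Figure D1:**
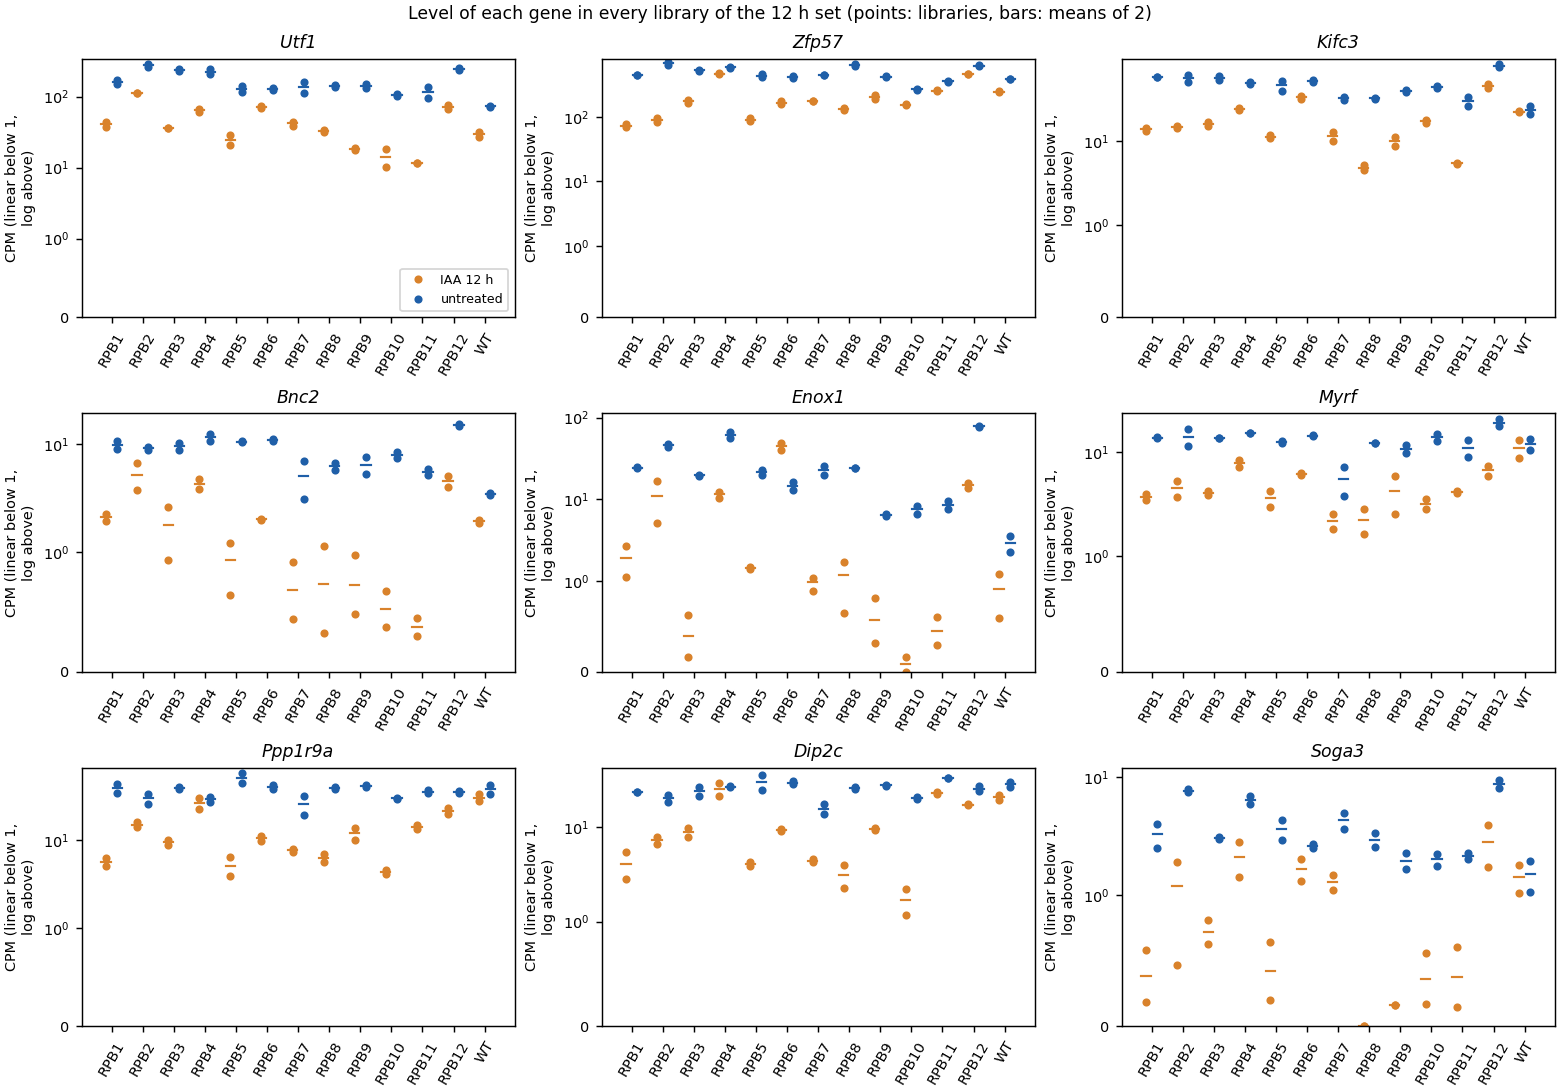
Level of each gene (CPM, linear below 1 and logarithmic above) in every library of the 12 h experiment, with IAA (orange) left of untreated (blue) in each line, points for libraries and bars for the mean of 2. Orange lies below blue in nearly every panel and line, and Enox1 in RPB6, at 40.4 and 48.9 CPM with IAA, is the exception.

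The genes were chosen from a longer run of genes with the same behaviour. Of 17928 genes tested, 82 (0.457%) were called lower in 11 or more lines, 28 (0.156%) in 12 or more and 4 in all 13. Utf1 and Zfp57 are among those 4, Kifc3, Bnc2 and Myrf were called lower in 12 lines, and Enox1, Ppp1r9a, Dip2c and Soga3 in 11. Just outside, 229 genes were called lower in 10 lines. Other genes lower in all 13 lines were Epb41l4a (median log2 fold change -1.27 over the lines) and Spry4 (-3.10), a Sprouty gene induced by, and acting against, growth factor signalling. The most abundant of those lower in 12 were Tdgf1 (-0.59), a Nodal co-receptor of stem cells, the Polycomb gene Phc1 (-0.45, called higher in the remaining line), Tet1 (-1.07), which oxidises 5-methylcytosine, Gpt2 (-1.06), Jarid2 (-0.49), a cofactor of Polycomb, Rbpj (-0.73), the DNA-binding factor of Notch signalling, Cobl (-1.35) and Ctbp2 (-0.53), a transcriptional corepressor.

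Among the nuclear factors, Utf1 was lower in each line but to differing degrees. In RPB11 it measured 11.5 and 11.5 CPM with IAA, against 94.8 and 136 CPM untreated, a log2 fold change of -3.33 (SE 0.18). In RPB6 it measured 68.9 and 72.6 CPM with IAA, against 134 and 125 CPM untreated (-0.87, SE 0.15). WT gave 27.1 and 31.5 CPM with IAA, against 71.7 and 74.4 CPM untreated (-1.32, SE 0.17). The WT libraries with IAA did not overlap those without it, and the change in RPB6 was the smallest of all 13 lines. RPB3 (-2.72), RPB9 (-2.96) and RPB10 (-2.89) lay between WT and RPB11.

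Zfp57, the imprint-keeping zinc-finger gene, was also lower in each line. In RPB2 it measured 82.3 and 96.5 CPM with IAA, against 649 and 706 CPM untreated (-2.92, SE 0.09). RPB1 followed, with 76.7 and 69.0 CPM with IAA and 454 and 442 CPM untreated (-2.62, SE 0.09). RPB4 had the smallest difference, at 470 and 475 CPM with IAA against 601 and 580 CPM untreated (-0.32, SE 0.08). WT gave 249 and 241 CPM with IAA and 387 and 390 CPM untreated (-0.66, SE 0.08). The degron lines thus fell on both sides of WT: RPB4, RPB11 (-0.50) and RPB12 (-0.44) changed less. Utf1 and Zfp57 ranked the lines differently, since RPB11 had the lowest Utf1 value and one of the 3 smallest Zfp57 changes.

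Bnc2 and Myrf had fewer counts and larger errors. Bnc2 in RPB10 measured 0.371 and 0.672 CPM (2 and 4 counts) with IAA, against 8.45 and 7.46 CPM untreated (-3.85, SE 0.43). In RPB2 it measured 6.66 and 3.73 CPM with IAA, against 8.81 and 9.46 CPM untreated (-0.82, SE 0.34), and this call was lost without the second untreated RPB2 library and also without the second IAA library (-0.48). WT had 1.99 and 1.85 CPM with IAA, against 3.36 and 3.55 CPM untreated (-0.84, SE 0.40), a difference that was not called although the libraries did not overlap. Myrf was the most even across lines, with changes of -0.98 (RPB4) to -2.41 (RPB8) in degron lines. In RPB8 Myrf measured 2.86 and 1.63 CPM with IAA and 12.2 and 12.3 CPM untreated. Its libraries overlapped in WT, at 8.78 and 13.2 CPM with IAA and 13.4 and 10.5 CPM untreated (-0.13, SE 0.23). The RPB7 change in Myrf (-1.36) rested on the first untreated library and was -0.79 and not called without it.

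Of the 3 genes for motor, cytoskeletal and coiled-coil proteins, Kifc3 was lower in all 12 degron lines. RPB8 had 5.15 and 4.56 CPM with IAA, against 33.4 and 32.7 CPM untreated (-2.76, SE 0.21), and RPB11 had 5.51 and 5.43 CPM with IAA, against 26.4 and 34.1 CPM untreated (-2.47, SE 0.18). WT libraries overlapped, at 22.9 and 22.3 CPM with IAA and 26.9 and 21.3 CPM untreated (-0.09, SE 0.15). RPB6 (-0.65) and RPB12 (-0.82) had the smallest called changes. Ppp1r9a in RPB5 measured 6.31 and 3.86 CPM with IAA, against 56.9 and 44.3 CPM untreated (-3.29, SE 0.22), while in RPB4 its libraries overlapped, at 29.5 and 22.3 CPM with IAA and 27.0 and 30.2 CPM untreated (-0.15, SE 0.18). WT Ppp1r9a was -0.31 (SE 0.17) and not called.

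Soga3 had the fewest counts, with 0 to 22 counts in any IAA library. In RPB8 it had 0 counts in both IAA libraries, against 19 and 14 counts (3.32 and 2.53 CPM) untreated, which makes it at least 6.403-fold lower when the floor is set at 3 counts over the IAA group. In RPB9 1 count in each IAA library stood against 10 and 13 counts untreated, a ratio of 12.1 with an exact 95% interval of 2.98 to 105.6 that covers counting error only. RPB6 was not called, at 1.32 and 2.03 CPM with IAA and 2.51 and 2.70 CPM untreated (-0.63, SE 0.51), and WT libraries overlapped, at 1.80 and 1.03 CPM with IAA and 1.06 and 1.95 CPM untreated. Its median over the 13 lines was -2.43, also with RPB8 set at its bound.

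Enox1 had the lowest median over lines (-3.66) and the only called rise. In RPB6 it measured 40.4 and 48.9 CPM (122 and 145 counts) with IAA, against 13.1 and 16.2 CPM (73 and 96 counts) untreated, a log2 fold change of 1.60 (SE 0.20). When libraries were scaled instead to their mitochondrial mRNA the value was -0.36, and the median of all genes in RPB6 stood at -2.08. Relative to the median of all genes, Enox1 in RPB6 was 1.73 higher with TMM scaling and 1.72 higher with mitochondrial scaling. A change of scaling moves Enox1 and that median together, so the closeness of these values cannot decide whether Enox1 mRNA rose in amount. In the other 11 degron lines and in WT both IAA libraries lay below both untreated ones. RPB3 had 0.624 and 0.162 CPM with IAA, against 20.1 and 19.2 CPM untreated (-5.55, SE 0.39). In RPB10 0 and 1 counts with IAA stood against 38 and 56 counts untreated, a ratio of 86.2 (exact 95% interval 15.1 to 3441, counting error only). Among the degron lines that fell, RPB2 (-2.07), RPB12 (-2.41) and RPB4 (-2.42) fell least. WT had 0.598 and 1.24 CPM with IAA and 2.30 and 3.55 CPM untreated, a value of -1.66 (SE 0.54) that was not called.

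Dip2c resembled Ppp1r9a across lines. It measured 2.22 and 1.175 CPM with IAA in RPB10, against 20.3 and 21.1 CPM untreated (-3.61, SE 0.27). In RPB8 it measured 4.004 and 2.28 CPM with IAA, against 26.7 and 25.6 CPM untreated (-3.03, SE 0.27). RPB4 libraries overlapped, at 29.3 and 21.5 CPM with IAA and 26.5 and 27.7 CPM untreated (-0.10, SE 0.17). RPB11 (-0.54) and RPB12 (-0.57) were called with small changes, and each lost its call when a library was left out. WT was -0.47 (SE 0.17) and not called.

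**Figure D2:**
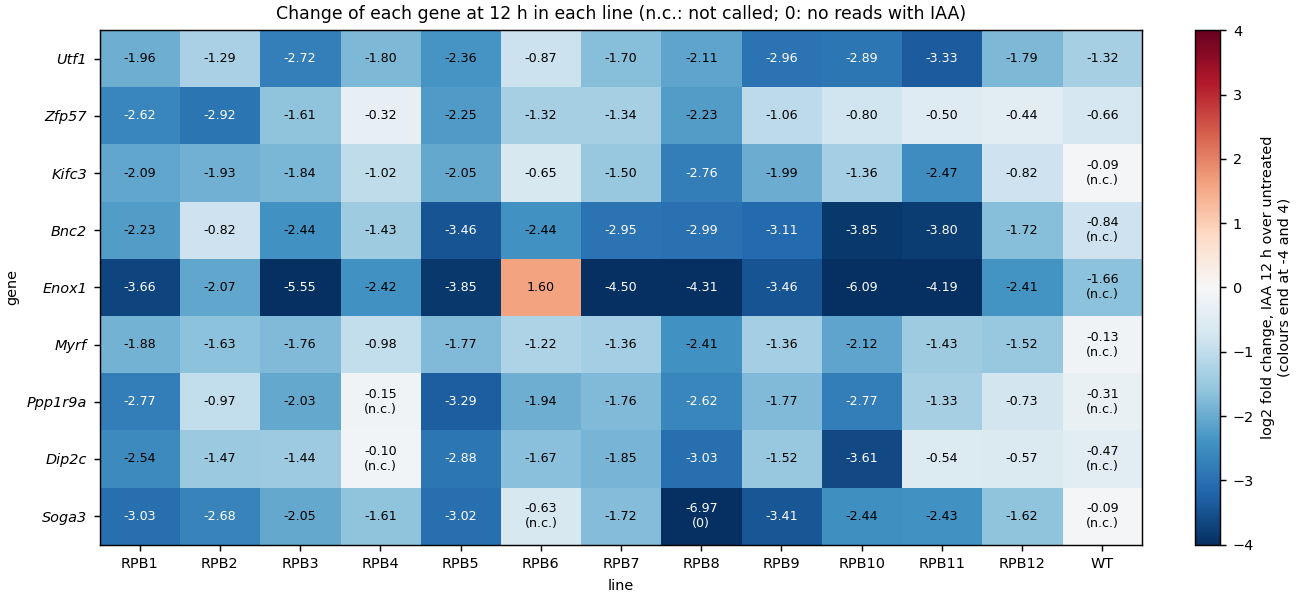
Log2 fold change of each gene (rows) in each line (columns), IAA 12 h over untreated, in blue where lower and red where higher; n.c. marks pairs not called and (0) marks Soga3 in RPB8, where no read was counted with IAA and the fitted -6.97 is no measure of size. The WT column is the palest, and the red cell is Enox1 in RPB6 (1.60).

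Across lines the members' median log2 fold change was lowest in RPB5 (-2.88), RPB10 (-2.77) and RPB8 (-2.76), and nearest 0 among degron lines in RPB4 (-1.02), RPB6 (-1.22) and RPB12 (-1.52). In WT it was -0.47. The median over all genes was 0.08 in RPB5, 0.00 in RPB10, 0.04 in RPB8, 0.00 in RPB4, -0.13 in RPB6, 0.00 in RPB12 and 0.00 in WT. Responses of Ppp1r9a and Dip2c ran most closely together over the 13 lines (Pearson r = 0.91), followed by Kifc3 and Soga3 (0.83). The value of 0.83 includes Soga3 in RPB8 at its fitted -6.97, which rests on 0 counts with IAA and is no measure of size. RPB8 was also the lowest line of Kifc3, and r was not recomputed with Soga3 at its bound, so 0.83 is uncertain. Utf1 and Zfp57 did not run together (-0.21). These are descriptions over 13 lines, in which both genes of a pair are measured in the same libraries.

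Of the 106 pairs called lower, 12 lost the call when 1 of the line's 4 libraries was left out. In RPB4, where 7 of the 9 genes were called, Zfp57 (-0.30 to -0.35) and Myrf (-0.87 to -1.10) lost it without any 1 of the 4 libraries, Bnc2 without the second IAA library (-1.29) and Soga3 without the second untreated (-1.49) or second IAA library (-1.20). In RPB12 Dip2c lost it without any 1 of the 4 (-0.48 to -0.64), Ppp1r9a without the second untreated (-0.69) or first IAA library (-0.62) and Soga3 without the first IAA library (-1.16). Soga3 lost it in RPB10 without the second IAA library (-1.81) and in RPB11 without the first (-1.77), and Dip2c in RPB11 without the second IAA library (-0.50). The other pairs were Bnc2 in RPB2 and Myrf in RPB7, given above. With mitochondrial mRNA scaling 13 pairs lost the call: Zfp57, Kifc3, Bnc2, Myrf and Soga3 in RPB4, Zfp57 and Dip2c in RPB11, Zfp57, Kifc3, Ppp1r9a, Dip2c and Soga3 in RPB12, and Zfp57 in WT, which left Zfp57 called lower in 9 lines. Calls were lost over all genes in these lines too. The number of genes called lower went from 170 to 15 in RPB4 and from 2343 to 226 in RPB11. In RPB12 it went from 475 to 40, and in WT from 151 to 2.

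Levels without IAA differed between lines, which the rule did not use directly, although these libraries also enter the 12 h contrasts. Enox1 differed most, with a mean of 78.5 CPM in RPB12 and 61.5 CPM in RPB4, against 2.93 CPM in WT, a 26.8-fold range. Its order was RPB12, RPB4, RPB2, RPB8, RPB1, RPB7, RPB5, RPB3, RPB6, RPB11, RPB10, RPB9 and WT, and libraries of neighbouring lines overlapped from RPB8 to RPB3 and between RPB11 and RPB10. Soga3 had a 5.79-fold range (8.74 CPM in RPB12, 1.51 CPM in WT), Bnc2 4.36-fold (15.1 CPM in RPB12, 3.46 CPM in WT), Utf1 3.76-fold (275 CPM in RPB2, 73.0 CPM in WT) and Kifc3 3.37-fold (81.3 CPM in RPB12, 24.1 CPM in WT). WT had the lowest mean of the 13 lines for these 5 genes, but its libraries overlapped those of the next line for Kifc3 (RPB11), Bnc2 (RPB7) and Soga3 (RPB9). It was not the lowest for Zfp57 (269 CPM in RPB10 to 677 CPM in RPB2), Myrf (5.53 CPM in RPB7 to 19.2 CPM in RPB12), Ppp1r9a (25.2 CPM in RPB7 to 50.6 CPM in RPB5) or Dip2c (15.9 CPM in RPB7 to 33.6 CPM in RPB11). The 3 minima in RPB7 rest on 2 libraries that stood apart, with Ppp1r9a at 31.3 and 19.1 CPM, Dip2c at 17.8 and 13.9 CPM and Myrf at 7.23 and 3.83 CPM.

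Untreated levels grouped the genes only in part as the responses did. Ppp1r9a and Dip2c (Pearson r = 0.71) and Kifc3 and Soga3 (0.67), the closest pairs in the responses, also varied together untreated. Utf1 and Zfp57 did so untreated (0.78) but not in the responses (-0.21). Enox1 and Soga3 varied together over the 13 lines (Pearson r = 0.95), as did Kifc3 and Bnc2 (0.94) and Utf1 and Enox1 (0.85), while Ppp1r9a and Soga3 did not (-0.36). Per kilobase of exon, the median untreated level was highest for Zfp57 (118 CPM per kb) and Utf1 (116 CPM per kb), and 0.729 CPM per kb for Soga3. The remaining 6 genes lay between 1.12 (Bnc2) and 8.87 CPM per kb (Kifc3).

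The libraries at 0 h and 1 h tested whether the genes had moved within the first hour. These libraries were fitted apart, across 15658 genes that included all 9, because the labels state poly(A) selection for the 12 h experiment alone. In RPB1 3 of the 9 genes passed (edgeR, adjusted over all genes), against 24.9% of all genes called in either direction. Utf1 rose, at 151 and 158 CPM at 1 h, against 117 and 131 CPM at 0 h (log2 fold change 0.31, SE 0.08, adjusted p = 0.00824). Kifc3 rose, at 27.8 and 27.0 CPM at 1 h, against 20.02 and 22.0 CPM at 0 h (0.38, SE 0.12, adjusted p = 0.0264). Zfp57 fell, at 555 and 535 CPM at 1 h, against 640 and 615 CPM at 0 h (-0.20, SE 0.06, adjusted p = 0.0265). The libraries did not overlap in any of the 3, and the largest was 1.304-fold. Utf1 and Kifc3 had a higher level at 1 h and a lower one at 12 h of IAA in RPB1. The calls are fragile. Zfp57 lost its call without any 1 of the 4 RPB1 libraries (-0.17 to -0.23, adjusted p 0.0555 to 0.175 by edgeR), Kifc3 without the first 0 h (0.32), the first 1 h (0.36) or the second 1 h library (0.40), and Utf1 without the first 0 h (0.23) or second 1 h library (0.27). Kifc3 was also not called by DESeq2 (adjusted p = 0.0838), nor Zfp57 without the filter on low counts (edgeR adjusted p = 0.11), and neither passed with mitochondrial scaling. With the first 0 h or the second 1 h library of RPB1 left out, 0 of the 9 genes were called at 1 h, and with the first 1 h library left out 1 was.

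In RPB3 and RPB6 none of the 9 genes passed at 1 h by edgeR or by DESeq2, against 0.358% and 1.54% of all genes called by edgeR. At an unadjusted p under 0.05, a looser threshold, stood 2 genes in RPB3 and 4 in RPB6. The share of all genes at that threshold was not computed, so nothing is read from these counts. Zfp57 in RPB3 had 536 and 535 CPM at 1 h, against 596 and 609 CPM at 0 h (-0.17, SE 0.06, adjusted p = 0.585 by edgeR). In RPB6 it had 246 and 243 CPM at 1 h, against 286 and 274 CPM at 0 h (-0.20, SE 0.06, adjusted p = 0.124 by edgeR). Neither passed, though the values lay within 1 SE of that in RPB1. Utf1 had 146 and 131 CPM at 1 h in RPB3, against 161 and 161 CPM at 0 h (-0.22, SE 0.08, adjusted p = 0.534 by edgeR). In RPB6 Utf1 had 114 and 110 CPM at 1 h, against 96.8 and 94.4 CPM at 0 h (0.22, SE 0.08, adjusted p = 0.156 by edgeR).

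The difference of 1 h responses was tested in the same fit. Utf1 differed between RPB1 and RPB3 (log2 difference 0.53, SE 0.11, edgeR adjusted p = 0.0109), against 5.58% of all genes called, and it was higher at 1 h in both RPB1 libraries and lower at 1 h in both RPB3 libraries. The call was lost without the first RPB1 0 h library (0.45), the second RPB1 1 h library (0.49) or the second RPB3 0 h library (0.53), and with mitochondrial scaling (0.54). No other member passed between RPB1 and RPB3, and without the first RPB3 1 h library the 3 comparisons gave 2 calls in all. Between RPB1 and RPB6 0 of 9 genes passed by edgeR, against 0.568% of all genes called. Between RPB6 and RPB3 0 of 9 passed, against 0.204% of all genes called, and DESeq2 called none of the 9 in either comparison. At an unadjusted p under 0.05 stood 0 genes between RPB1 and RPB6 and 2 between RPB6 and RPB3, for which no share of all genes was computed. The 3 comparisons share libraries.

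**Figure D3:**
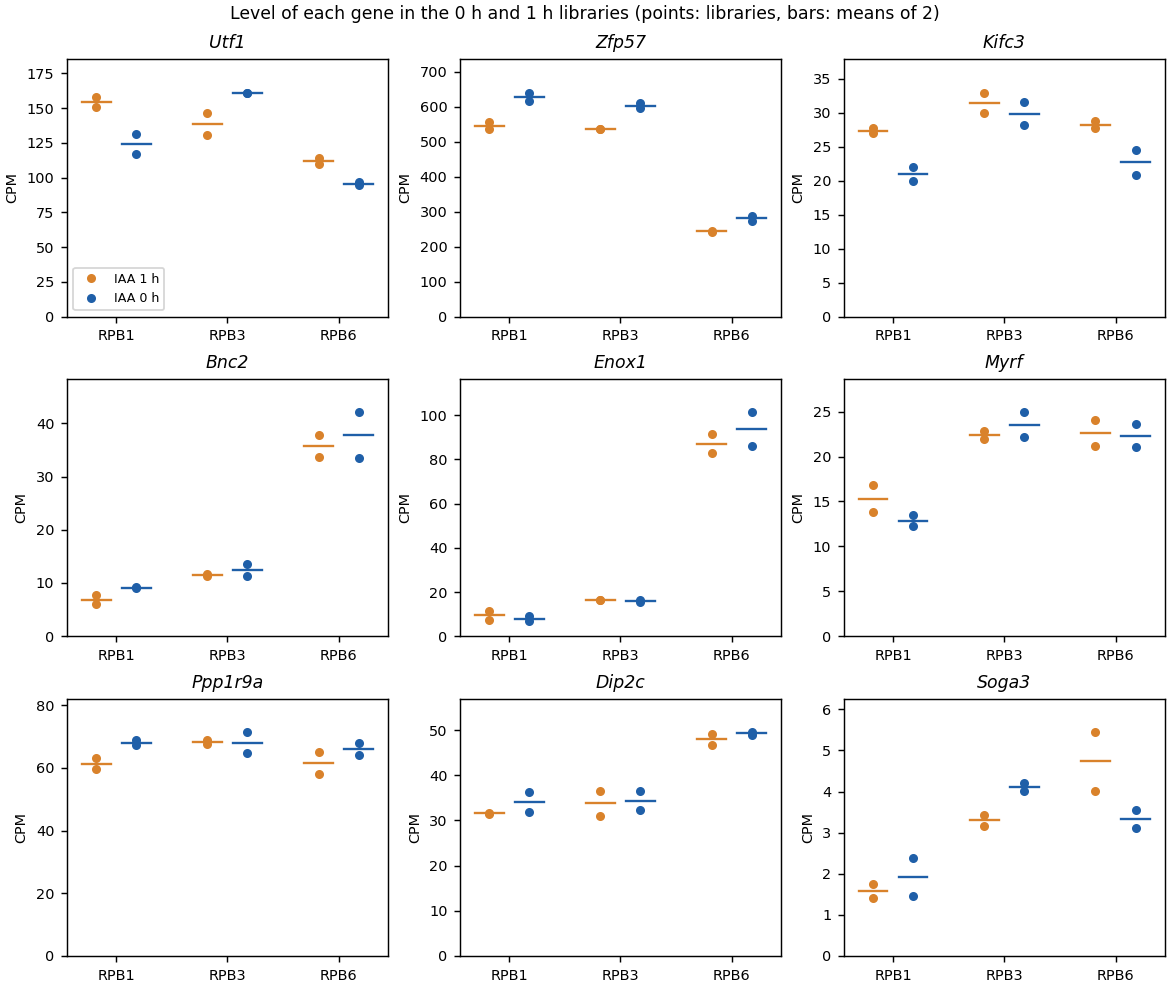
Level of each gene (CPM, linear axes from 0) at 1 h of IAA (orange, left) and 0 h (blue, right) in RPB1, RPB3 and RPB6, with points for libraries and bars for the mean of 2. The hour moves the genes little, while lines differ, with Enox1 at 82.7 to 101 CPM in RPB6 and under 17 CPM in RPB1 and RPB3.

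At 0 h members differed between lines in 18 of 27 tests by edgeR, in comparisons that share lines. Differences between lines were common over all genes too. The share called was 21% between RPB1 and RPB3, 55.9% between RPB1 and RPB6 and 62.2% between RPB6 and RPB3. RPB1 was lower than RPB3 for 5 genes and higher for 0, against 21% of all genes called in either direction. The 5 were Soga3 (log2 difference -1.10, SE 0.29, adjusted p = 0.013), Enox1 (-1.01), Myrf (-0.87), Kifc3 (-0.51) and Utf1 (-0.37). Without the first RPB1 0 h library, Soga3 (-0.79), Enox1 (-0.81), Kifc3 (-0.44) and Utf1 (-0.29) lost their calls, Soga3 also without either RPB3 0 h library (-1.13 and -1.06) and Kifc3 without the second (-0.43). RPB1 differed from RPB6 for 7 genes, with 5 lower and 2 higher, against 55.9% of all genes. Enox1 had 6.75 and 9.03 CPM in RPB1, against 86.2 and 101 CPM in RPB6 (-3.57, SE 0.16, edgeR adjusted p = 6.33e-12). Bnc2 had 8.997 and 9.27 CPM in RPB1, against 33.5 and 42.1 CPM in RPB6 (-2.04, SE 0.15, edgeR adjusted p = 3.25e-09). Zfp57 went the other way, with 640 and 615 CPM in RPB1, against 286 and 274 CPM in RPB6 (1.16, SE 0.06, edgeR adjusted p = 7.03e-11). The other calls were Utf1 (0.38), Myrf (-0.79), Dip2c (-0.53) and Soga3 (-0.79), the last lost without the first RPB1 (-0.48) or either RPB6 0 h library (-0.89 and -0.69). DESeq2 did not call Soga3 against RPB6 (adjusted p = 0.138) or against RPB3 (adjusted p = 0.0653), and with mitochondrial mRNA scaling Utf1 against RPB6 was 0.07 and not called (edgeR adjusted p = 0.61).

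RPB6 differed from RPB3 for 6 genes, 3 lower and 3 higher, against 62.2% of all genes. Enox1 was higher, at 86.2 and 101 CPM in RPB6 and 15.3 and 16.5 CPM in RPB3 (2.56, SE 0.14). Bnc2 (1.59) and Dip2c (0.52) were also higher in RPB6, and Zfp57 (-1.10), Utf1 (-0.75) and Kifc3 (-0.40) lower, the last lost without the second RPB3 (-0.32) or first RPB6 0 h library (-0.28) or with mitochondrial scaling (-0.26). Ppp1r9a passed in none of the 3 comparisons, with log2 differences of 0.00 to 0.04 in size and an SE of 0.09.

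The line order at 0 h did not match the untreated libraries of the 12 h experiment for Enox1. In RPB6 it stood at 86.2 and 101 CPM at 0 h and 82.7 and 91.6 CPM at 1 h, and in the 12 h experiment at 40.4 and 48.9 CPM with IAA and 13.1 and 16.2 CPM untreated. In RPB3 it stood at 15.3 and 16.5 CPM at 0 h and at 20.1 and 19.2 CPM untreated, and in RPB1 at 6.75 and 9.03 CPM at 0 h and 24.6 and 24.1 CPM untreated. For other genes too, not all gaps called at 0 h were present untreated. Untreated Bnc2 was 10.8 and 9.02 CPM in RPB1 and 10.7 and 11.2 CPM in RPB6, without the gap at 0 h. Untreated Zfp57 was 454 and 442 CPM in RPB1 and 406 and 426 CPM in RPB6, a smaller gap than at 0 h. Untreated Kifc3 overlapped, at 59.5 and 59.8 CPM in RPB1 and 54.8 and 61.5 CPM in RPB3. Utf1 was lower in RPB1 (170 and 150 CPM) than in RPB3 (245 and 228 CPM) untreated, as at 0 h. The experiments were normalised separately and may differ in library type, so these levels are given side by side and were not tested.

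Close relatives of the 9 genes, which the 12 h pattern did not select, were called lower in 0 to 6 lines each. Of 12 related genes 11 were tested at 12 h (Bnc1 was not). None was called in RPB4, RPB12 or WT, where the share of all genes called lower was 0.948%, 2.65% and 0.842%. The number called lower was highest in RPB2 (7 of 11, against 34% of all genes) and RPB6 (6 of 11, against 33.4%). In RPB1, in RPB3 and in RPB7 5 of the 11 were called higher, against 35.8% of all genes in RPB1, 24.4% in RPB3 and 20.2% in RPB7. Enox2 was lower in 5 lines and higher in 1 (median -0.43 over 13 lines). Dip2a was lower in 6 lines (-0.36) and Dip2b in 4 (-0.02, higher in 1). Ppp1r9b, which encodes spinophilin, was lower in 3 lines and higher in 2 (0.01). Soga1 was lower in 4 and higher in 1 (-0.25), and Mtcl1 lower in 4 and higher in 4 (-0.12). Kifc2 was lower in 0 lines and higher in 6 (0.33), Kifc1 lower in 2 and higher in 1 (0.16) and Kifc5b lower in 2 and higher in 3 (0.06). Myrfl was higher in 6 lines (1.37) at a mean of only 0.906 CPM. Zfp445, another zinc-finger gene of imprint maintenance, was lower in 5 and higher in 1 (-0.26). Reads of close copies such as Kifc1 and Kifc5b may be divided between them by the counting, so their values are uncertain.

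**Figure D4:**
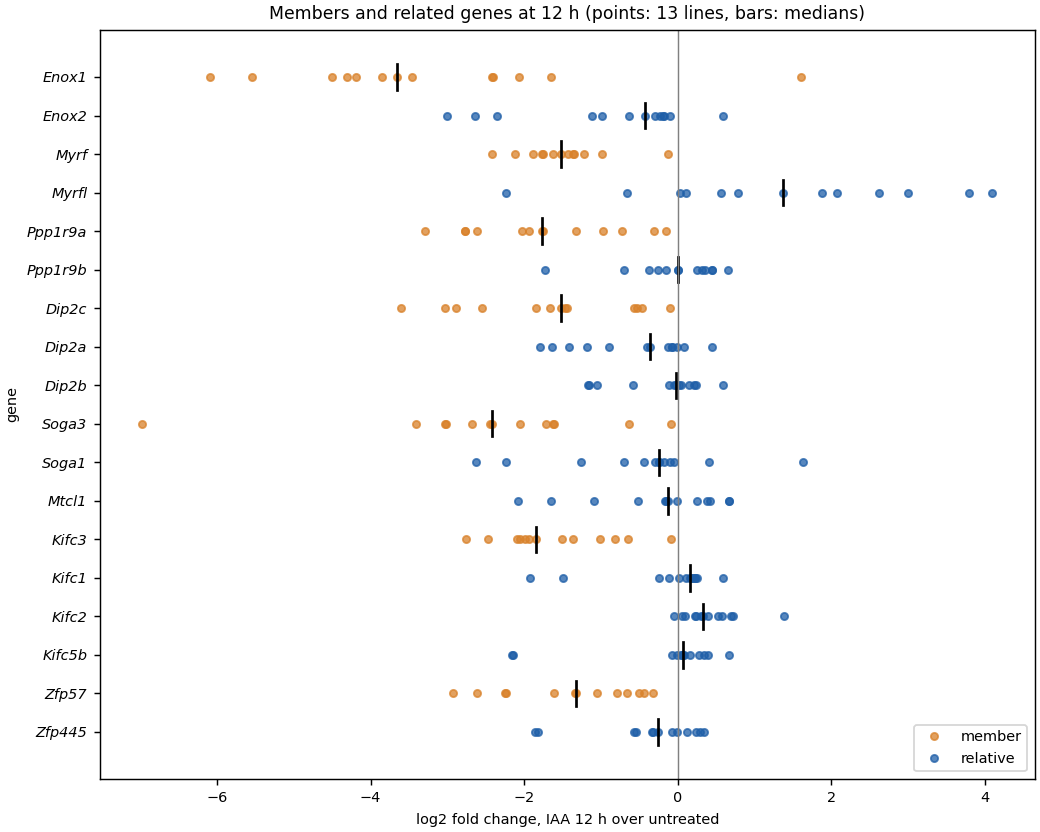
Log2 fold change, IAA 12 h over untreated, of members with a tested relative (orange) and of the relatives (blue), with 1 point for each of 13 lines and a bar at the median. Medians of the members run from -3.66 (Enox1) to -1.32 (Zfp57), and those of the relatives from -0.43 (Enox2) to 1.37 (Myrfl). The members were selected for being lower at 12 h and the relatives were not, so nothing is read from the gap between them.

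Genes that work beside Utf1 and Zfp57 were also followed. Of 25 pluripotency genes, 22 fell and 3 rose with IAA in RPB8, 5 fell and 4 rose in RPB4, and 7 fell and 1 rose in WT. Over all genes, 30.2% were called lower and 31.5% higher in RPB8, 0.948% lower and 1.13% higher in RPB4, and 0.842% lower and 0.803% higher in WT. The medians of the list were -1.30 in RPB8, -0.06 in RPB4 and -0.16 in WT, against 0.04, 0.00 and 0.00 over all genes. RPB8 and RPB5 had the most falls of all lines. In the other degron lines the list median ran from -1.89 in RPB2 to -0.07 in RPB12, against -0.19 and 0.00 over all genes. Among them the largest medians over lines belonged to Dppa2 (-1.09, lower in 9 lines and higher in 1), Tet1 (-1.07, lower in 12), Zfp42 (-1.06, lower in 10) and Fgf4 (-0.93, lower in 9 and higher in 1). Pou5f1, the central pluripotency factor, was lower in 0 lines and higher in 4 with TMM scaling, relative to the other genes. At 1 h in RPB1, 6 of the 25 fell and 5 rose, where 13.9% of all genes were called lower and 11% higher.

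Imprinting factors and imprinted genes moved both ways. Of 29 tested, 17 rose and 6 fell in RPB2, 7 rose and 11 fell in RPB1, 2 rose and 3 fell in RPB4, and 1 rose and 0 fell in WT. Over all genes, 27.9% were called higher and 34% lower in RPB2, and 35.8% higher and 30.5% lower in RPB1. In RPB4 these shares were 1.13% and 0.948%, and in WT 0.803% and 0.842%. Zfp57 itself fell most in RPB2, followed by RPB1. The list median was 0.76 in RPB2, -0.26 in RPB1 and 0.63 in RPB6, against -0.19, 0.09 and -0.13 over all genes. These are TMM values, relative to the other genes. With total counts the median of all genes was -1.03 in RPB2 and -0.75 in RPB6. With mitochondrial mRNA scaling it was -2.32 and -2.08. Whether these mRNAs rose in amount per cell was not tested. A link between Zfp57 and the list was not tested. The largest medians over lines were those of Magel2 (3.46, higher in 6 lines), which averaged 1.65 CPM, Cdkn1c (0.97, higher in 7), Sgce (-0.88, lower in 5) and Grb10 (-0.81, lower in 8 and higher in 1). Trim28, the corepressor that Zfp57 recruits, was lower in 5 lines and higher in 3 (-0.14).

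Long genes were common among the members. Of the 9, 4 span over 250 kb (Enox1, Bnc2, Dip2c and Ppp1r9a), against 378 of 14253 tested protein-coding genes (2.65%), and Enox1 is longer than 99.6% of them. Utf1, at the other end, is longer than 1.33%. Without the members, which were selected for being lower in many lines, 3 of 374 genes over 250 kb (0.802%) were called lower in 11 or more lines, 24 of 1327 genes of 100 to 250 kb (1.81%) and 12 of 3722 genes under 10 kb (0.322%). Of the 70 other protein-coding genes called lower in 11 or more lines, 3 span over 250 kb, so the share of long genes among the members does not describe that larger group. In RPB10 the long genes had a median log2 fold change of -1.81, against 0.13 for genes under 10 kb, while the 4 long members had -3.73 and the other 5 members -2.12. This was the lowest median of long genes in the 13 lines, followed by RPB8 (-1.28, against 0.72 for genes under 10 kb). It was nearer 0 in RPB4 (-0.05, against 0.03), RPB3 (-0.13, against 0.01) and WT (-0.17, against -0.02). The long members had the lower median in 10 of the 13 lines. The order was the reverse in RPB2 (-1.22 for the long members and -1.93 for the others), RPB4 (-0.79 and -1.02) and RPB12 (-1.22 and -1.52).

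**Figure D5:**
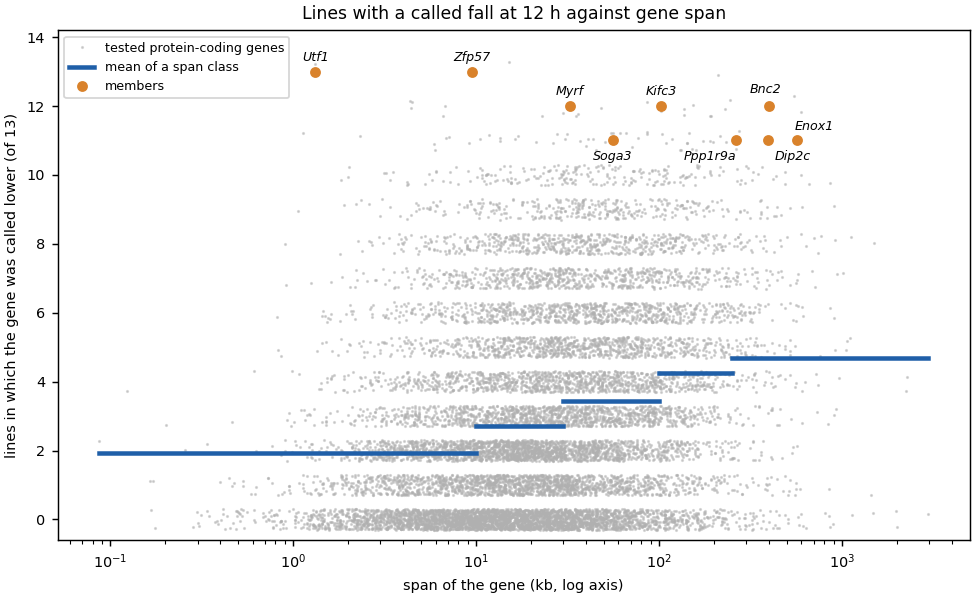
Number of lines in which a gene was called lower at 12 h (of 13, jittered for the grey points) against its span in kb on a log axis, for 14253 tested protein-coding genes, with members in orange and blue bars for the mean of each span class. Class means, members included, rise with span to 4.69 lines over 250 kb (4.62 without the members), and all 9 members lie at 11 lines or more, from Utf1 at 1.32 kb to Enox1 at 565 kb.

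Other genes followed the members closely over the 26 groups of the 12 h experiment (Pearson r of log2 CPM group means, 11581 candidates averaging at least 5 CPM). Genes whose profile was close to the mean profile of the 9 included Sh3gl2 (r = 0.93), Nfkb1 (0.92), Cdk6 (0.90) and Epb41l4a (0.88). By single gene, Utf1 and Bnc2 were most like Nfkb1 (0.92 and 0.88), Zfp57 was most like the chaperone gene Hspa8 (0.95), Kifc3 like Chrac1 (0.85), Enox1 like Ddx58 (0.96), Myrf like Utrn (0.91), Ppp1r9a like Sbf2 (0.95), Dip2c like Usp34 (0.95) and Soga3 like Epb41l4a (0.90). These values are descriptions over groups that share their libraries and depth.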

How the data were processed

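RNA sequencing covered 64 libraries in 32 groups of 2, all from V6.5 cells. The authors deposited whole-number read counts per gene. Per the submitters' processing notes the tools included featureCounts, STAR, Bowtie2, DESeq2 and cutadapt 1.18 with mm10 and dm6. Their roles, the annotation release and strand use were not given in the sources used here. Per the labels' protocols 10% fly S2 cells were added. The rows used here held 0 fly genes, and no spike-in scaling was made. The table also had 4 columns that match no sample and were not used.

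Genes were matched by Ensembl ID to GENCODE M21. The 52 libraries of the 12 h experiment and the 12 at 0 h and 1 h were fitted apart in edgeR 4.0.16 (R 4.3.3; filterByExpr, TMM, quasi-likelihood F-test, 1 coefficient per group), with Benjamini-Hochberg adjustment over all genes and a threshold of 0.05. Standard errors are the log2 fold change over the root of F. The code was tested on simulated counts. The members and gene lists were chosen with earlier results of these data known. Named genes are all members, their relatives, the nearest genes by correlation, the most abundant genes lower in most lines, and up to 4 genes with the largest median in the pluripotency and imprinting lists. Pou5f1 and Trim28 were chosen after their values were seen. Alternatives were RLE size factors, total counts, mitochondrial mRNA scaling, no filter on low counts, DESeq2 1.42.0, a replicate block, each line alone, and each library left out with the dispersion trend held. Doxycycline is 2 µg/ml in the sample labels and 1 µg/ml in the series text. Some results that the rule on named genes would give are not reported here.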

Additional observations from a re-analysis of the deposited data

Results flagged for a closer look

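Enox1 at 12 h in RPB6 had both IAA libraries above both untreated libraries (log2 fold change 1.60), whereas in the other 12 lines both IAA libraries lay below both untreated ones. This difference between lines was not tested. The response of Utf1 at 1 h differed between RPB1 and RPB3 by 0.53 (log2, edgeR interaction test), with both RPB1 libraries higher and both RPB3 libraries lower at 1 h than at 0 h. Groups of 2 libraries are too small for a check of single outlying libraries.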

How the results depend on the processing

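The count of pairs called lower at 12 h (106 of 117) was 94 to 106 under the 7 other settings and 102 to 106 with single libraries left out. Mitochondrial mRNA scaling took away 13 of these calls, all in RPB4, RPB11, RPB12 and WT, where calls over all genes were lost too, and reversed Enox1 in RPB6 (-0.36). It put the all-gene median (log2) at -2.32 in RPB2, -2.08 in RPB6, -1.43 in RPB8 and 0.80 in RPB3. Total counts put it at -1.03 in RPB2 and -0.75 in RPB6. The members' median stayed below that of all genes in each of the 13 lines under these 7 settings. Nothing is read from this, since the same contrasts chose the members and a change of scaling moves all genes of a line together.

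The count of members called at 1 h (3) was 1 with mitochondrial scaling and 0 to 4 with single libraries left out, that between lines at 0 h (18) was 13 to 19, and that of 1 h responses that differed (1) was 2 without the filter on low counts, 0 with mitochondrial scaling and 0 to 2 with single libraries left out; the cause was not tested. Kifc3 lost its call at 1 h in RPB1 under DESeq2, and Zfp57 without the filter; mitochondrial scaling took away both. Kifc3 at 1 h in RPB3, not called at 0.08, ranged over -0.000332 to 0.158 with single libraries left out. Replicate numbers did not pair the samples (correlation of deviations -0.148 to 0.055), and the replicate block left 106, 3 and 1 calls and gave 19 between lines. Counts under 10 in many IAA libraries limit Soga3, Bnc2 and Enox1.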
